A study of Mus musculus with 8 samples.

Results

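The epidermal growth factor (EGF) receptor ligands and their ERBB receptors were followed in bulk RNA-Seq of PyMt mammary tumors from mice that received topical calcipotriol or EtOH solvent. The family was taken as 7 ligands (Ereg, Areg, Hbegf, Tgfa, Btc, Epgn and Egf) and 3 receptors (Egfr, Erbb2 and Erbb3), which are 10 of the 55414 genes in the count table, and all 10 had enough reads to be tested. The read filter needs enough reads in only as many tumors as a group holds, and Ereg and Epgn met it through the calcipotriol-treated tumors. The family was chosen on this same comparison, in which Ereg had already been seen among the largest rises, so the fold changes of its members are given as a description and carry no p value.

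The tumors grew from a PyMt cell line, established from the mammary tumor of a C57BL/6 mouse that carried the MMTV-PyMt transgene, in which the mouse mammary tumor virus promoter drives the polyoma middle T oncogene in mammary epithelium. Cells of this line were implanted in the inguinal mammary fat pad of young WT mice, the tumor site was treated topically every other day, and the RNA was taken a day after the last application. Calcipotriol, a vitamin D analog, was dissolved in ethanol, and the control mice received the ethanol alone. There were 4 EtOH-treated tumors (replicates 1, 2, 3 and 4) and 4 calcipotriol-treated tumors (replicates 1, 5, 6 and 7), all from this cell line in WT hosts. The study's methods call the 4 samples of a group biological replicates, and the labels do not give the mouse of each library, so the intervals below measure the spread between these libraries. The labels call the samples epithelial cells, but the libraries held tumor tissue: besides the epithelial keratins Krt8 (284.8 to 651.8 CPM, counts per 1000000) and Krt18 (259.7 to 665.2 CPM), every tumor had RNA of macrophages, fibroblasts and endothelium.

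Total counts per library ran from 19685423 to 25084740. The EtOH-treated tumors fell into 2 pairs by their whole profile: across genes, log2 CPM correlated at 0.959 between replicates 1 and 2 and at 0.958 between replicates 3 and 4, but at 0.919 to 0.934 across the pairs. Calcipotriol replicate 1 correlated at 0.931 to 0.945 with replicates 5, 6 and 7, which correlated at 0.958 to 0.977 among themselves. In the comparison of the groups, 155 of 14458 tested genes (1.07%) were called higher with calcipotriol and 137 (0.948%) lower, where a call required an adjusted p under 0.05 in edgeR's quasi-likelihood test and a log2 fold change of at least 1 in size. All 4 calcipotriol-treated tumors lay above all 4 EtOH-treated tumors for 6.32% of tested genes and below them for 6.16%.

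The EGF family ligands are made as membrane-anchored precursors that proteases of the ADAM family cut free. Egf, Tgfa, Areg and Epgn bind EGFR, whereas Hbegf, Btc and Ereg bind both EGFR and ERBB4. Ligand binding pairs the receptors, and the kinase signals through Ras-MAPK and PI3K-AKT. ERBB2 has no known ligand of its own and acts as a partner, and ERBB3 has little kinase activity and signals through its partners when a neuregulin binds. In the mammary gland amphiregulin, the product of Areg, is the main EGFR ligand of ductal growth at puberty, and ERBB2 is the receptor amplified in a class of human breast cancers.

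Of the 7 ligands, 4 are neighbors on chromosome 5 (GRCm38, GENCODE M21), in the order Epgn (chr5:91027464-91035215), Ereg (chr5:91074622-91093646), Areg (chr5:91139599-91148432) and Btc (chr5:91357261-91402994), with Btc alone on the minus strand. The starts of Epgn, Areg and Btc lie 47.2, 65.0 and 328.4 kb from the start of Ereg. The bases just before the starts of these 3 neighbors are shown because they lie in the same cluster as Ereg, which itself had no RefSeq promoter to show. They come from the RefSeq promoter table (GRCm38.p6), read 5′ to 3′ on the strand of the gene, with bases that GENCODE counts as transcribed left off. The windows are chr5:91027267-91027463 for Epgn (197 bases, plus strand), chr5:91139349-91139598 for Areg (250 bases, plus strand) and chr5:91402995-91403244 for Btc (250 bases, minus strand), and capitals mark a cyclic AMP response element (CRE).
Epgn: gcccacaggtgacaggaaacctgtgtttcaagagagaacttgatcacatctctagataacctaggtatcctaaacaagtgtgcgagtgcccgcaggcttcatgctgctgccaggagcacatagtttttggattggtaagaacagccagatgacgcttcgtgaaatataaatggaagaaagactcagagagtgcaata
Areg: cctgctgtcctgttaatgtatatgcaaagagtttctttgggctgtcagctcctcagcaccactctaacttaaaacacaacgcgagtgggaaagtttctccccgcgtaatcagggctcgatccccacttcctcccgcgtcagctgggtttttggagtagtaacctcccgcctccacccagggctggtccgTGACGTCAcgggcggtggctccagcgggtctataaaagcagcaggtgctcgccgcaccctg
Btc: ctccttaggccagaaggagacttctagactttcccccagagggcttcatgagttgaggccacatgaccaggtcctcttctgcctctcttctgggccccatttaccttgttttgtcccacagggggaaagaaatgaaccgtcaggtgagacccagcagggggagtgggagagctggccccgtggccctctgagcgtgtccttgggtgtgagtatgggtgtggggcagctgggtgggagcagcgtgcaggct

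The motifs were searched on both strands, the AP-1 site TGANTCA, the CRE TGACGTCA and the E-box CACGTG. In the 250 bases before the start, AP-1 letters were present in 6.75% of 32817 RefSeq promoters, CRE letters in 1.55% and E-box letters in 6.02%. Of the 10 members, 7 had a promoter in the table (Egf, Epgn, Areg, Btc, Tgfa, Egfr and Erbb2). The only match among them was the CRE of Areg, which begins 61 bases before the RefSeq start. A match to these letters is a description and not a measured binding site.

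Ereg was the member that changed most and the only member past both thresholds. It encodes epiregulin, a ligand of EGFR and ERBB4. In the EtOH-treated tumors it had 2, 0, 0 and 13 counts (replicates 1 to 4), and in the calcipotriol-treated tumors it had 724, 427, 340 and 533 counts (replicates 1, 5, 6 and 7). All calcipotriol-treated tumors were therefore far above all EtOH-treated tumors, the closest values being 16.3 CPM with calcipotriol and 0.573 CPM with EtOH. In the plot of members by tumor, Ereg is the panel in which the EtOH points lie on the axis. A library with 0 counts allows a level of up to 3 counts, or 0.119 to 0.146 CPM in these libraries, and this floor covers counting error only. Its log2 fold change was 6.96 (standard error, SE, 0.75, 95% interval 5.29 to 8.63), and 13 of the 15 EtOH counts came from replicate 4. Without EtOH replicate 4 the log2 fold change was 9.24, above that interval, so the interval is only a rough guide at so few EtOH counts. The ratio of pooled scaled counts was 130.5 (exact 95% interval 78.9 to 233.6, counting error only), and without EtOH replicate 4 it was 728.0 (201.3 to 6015.2), resting on 2 EtOH counts.

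Areg was the most abundant member per length in both groups. It had 63.5, 57.7, 131.2 and 150.8 CPM in EtOH replicates 1 to 4, and 127.7, 125.3, 120.2 and 107.0 CPM in calcipotriol replicates 1, 5, 6 and 7. The calcipotriol-treated tumors were close together and sat between the low and the high EtOH tumors, so the groups overlapped. Between the groups the log2 fold change was 0.25 (SE 0.28, 95% interval -0.38 to 0.88). The 2 pairs of EtOH tumors gave opposite signs for Areg: the log2 fold change was 0.99 without EtOH replicates 3 and 4 and -0.23 without EtOH replicates 1 and 2, a split tried after the values had been seen.

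Hbegf encodes heparin-binding EGF-like growth factor, a ligand of EGFR and ERBB4 and the receptor of diphtheria toxin in human cells. The gene is on chromosome 18. It had 34.8, 31.8, 66.8 and 62.1 CPM in EtOH replicates 1 to 4, and 152.6, 128.7, 76.3 and 67.1 CPM in calcipotriol replicates 1, 5, 6 and 7. The groups did not overlap, but the lowest calcipotriol tumor and the highest EtOH tumor were almost level. The log2 fold change was 1.12 (SE 0.32, 95% interval 0.41 to 1.82), and Hbegf did not pass the adjusted p threshold, with log2 fold changes of 0.89 to 1.31 when single tumors were left out. It did pass both thresholds with DESeq2's test, with no filter on low counts and without EtOH replicates 3 and 4, where its log2 fold change was 1.67. Without EtOH replicates 1 and 2 the value was 0.72, below the fold threshold.

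Epgn, which encodes epigen, an EGFR ligand of epithelia, was scarce. It had 2, 1, 13 and 9 counts in EtOH replicates 1 to 4, and 23, 35, 26 and 41 counts in calcipotriol replicates 1, 5, 6 and 7. Each calcipotriol-treated tumor was above each EtOH-treated tumor. For Epgn the log2 fold change was 2.32 (SE 0.79, 95% interval 0.58 to 4.06), from 0.267 ± 0.231 CPM (SD, n = 4) with EtOH to 1.38 ± 0.37 CPM (SD, n = 4) with calcipotriol. Epgn did not pass the adjusted p threshold, except without EtOH replicates 3 and 4, where its log2 fold change was 4.13. Without EtOH replicates 1 and 2 it was 1.56.

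The other 3 ligands did not pass, and their groups overlapped. Btc encodes betacellulin, first known as a growth factor of beta cell tumors, and had 19.3, 29.3, 26.6 and 24.1 CPM in EtOH replicates 1 to 4. With calcipotriol it had 38.1 CPM in replicate 1 and 16.7, 14.6 and 18.6 CPM in replicates 5, 6 and 7. Replicate 1 was thus the highest of all 8 tumors, and the other 3 calcipotriol-treated tumors were below every EtOH tumor. The log2 fold change of Btc was -0.17 (SE 0.29, 95% interval -0.82 to 0.47). Tgfa (chr6:86195223-86275719) encodes transforming growth factor alpha, and had 4.23, 3.7, 1.82 and 3.7 CPM with EtOH and 2.66, 1.92, 3.41 and 4.15 CPM with calcipotriol, a log2 fold change of -0.15 (SE 0.40). Both groups covered nearly the same range. Egf (chr3:129677565-129755316), the founding ligand, had 2, 24, 26 and 12 counts in EtOH replicates 1 to 4 and 0, 9, 28 and 5 in calcipotriol replicates 1, 5, 6 and 7. Its log2 fold change of -0.54 had a wide 95% interval of -3.04 to 1.95, and without calcipotriol replicate 6 it was -1.76.

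**Figure D1:**
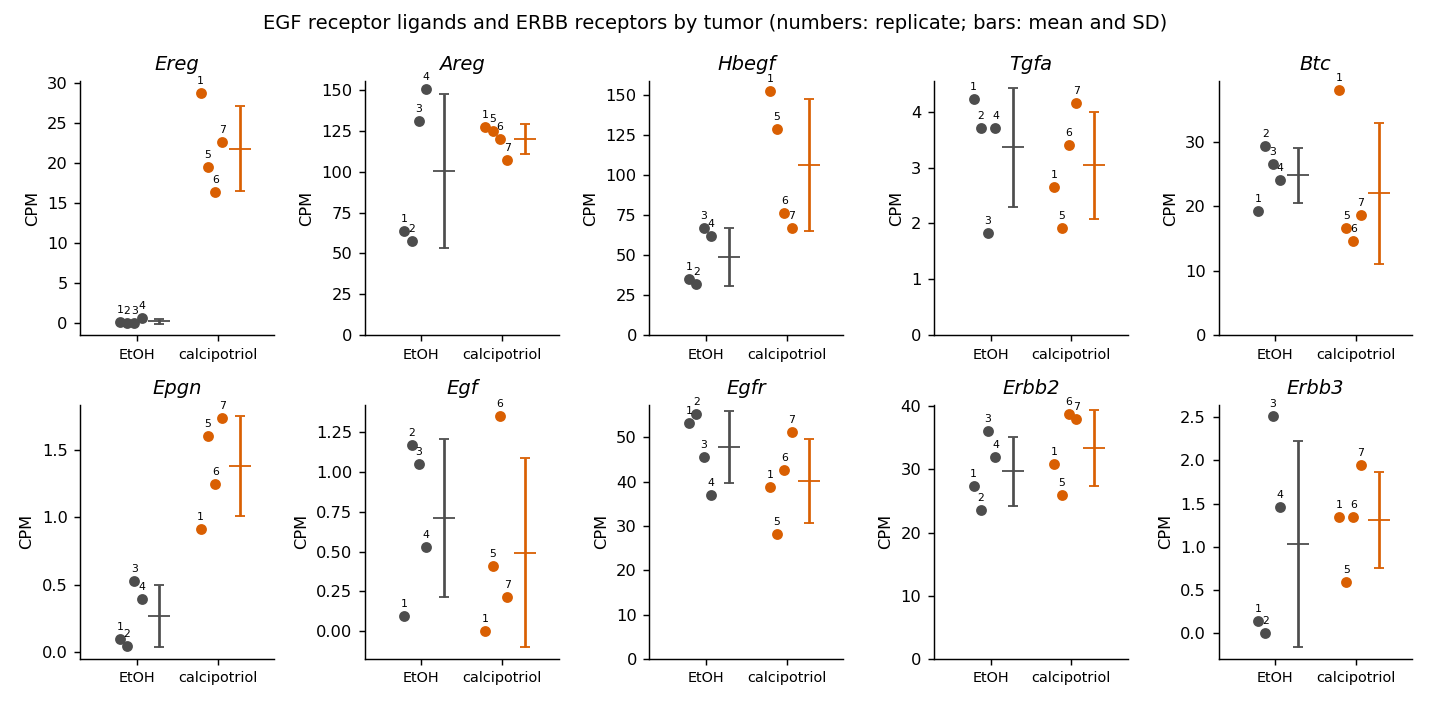
Each panel shows 1 gene, with CPM on the y axis (linear), 4 EtOH-treated tumors in grey and 4 calcipotriol-treated tumors in orange, numbered by replicate, and the mean with its SD as the bar beside them. Ereg lay between 16.3 and 28.8 CPM with calcipotriol and at or below 0.573 CPM with EtOH, whereas the groups overlapped in 7 of the 10 panels.

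Among the receptors, none passed the thresholds and the groups overlapped for each. Egfr (chr11:16752203-16918158), the receptor shared by all 7 ligands, had 53.2, 55.2, 45.6 and 37.1 CPM in the EtOH-treated tumors and 38.9, 28.2, 42.6 and 51.2 CPM in the calcipotriol-treated tumors. On the log2 scale Egfr differed by -0.25 (SE 0.20, 95% interval -0.68 to 0.18), an interval that did not reach 1 in either direction. Erbb2 (chr11:98412470-98437716) had 27.3, 23.6, 36.1 and 31.9 CPM with EtOH and 30.9, 26.0, 38.8 and 37.9 CPM with calcipotriol, and had the narrowest interval of the members, with a log2 fold change of 0.17 (SE 0.18, 95% interval -0.24 to 0.57). Erbb3 (chr10:128567523-128589652) had 3, 0, 62 and 33 counts in the EtOH-treated tumors against 34, 13, 28 and 46 in the calcipotriol-treated tumors, for a log2 fold change of 0.34 (SE 1.07, 95% interval -2.02 to 2.70). The low Erbb3 values were those of EtOH replicates 1 and 2. There the epithelial adhesion gene Epcam also had 0 CPM, against 4.29 and 2.87 CPM in EtOH replicates 3 and 4. Krt7, Krt19 and Cldn4 had 0 CPM there as well. Krt8 was higher there (649.3 and 651.8 CPM) than in EtOH replicates 3 and 4 (522.8 and 547.6 CPM). So was Krt18 (595.9 and 665.2 against 462.1 and 508.9 CPM). How far epithelial content in these tumors bears on Erbb3 was not tested. The direction of Erbb3 turned with these tumors: its log2 fold change was 4.06 without EtOH replicates 3 and 4 and -0.60 without EtOH replicates 1 and 2, and -0.02 and -0.07 without EtOH replicate 1 or 2 alone. Without EtOH replicate 3 it was 1.28, and in none of these fits did Erbb3 pass.

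Over the 10 members, 1 was called higher and 0 lower, beside 1.07% and 0.948% of all tested genes. For 3 members (Ereg, Hbegf and Epgn) all 4 calcipotriol values exceeded all 4 EtOH values, beside 6.32% of all tested genes, and for 0 members did all fall below, beside 6.16%. The log2 fold change was positive for 6 members and negative for 4, with a median of 0.21 against 0.02 over all tested genes. Since the family was chosen on this contrast, nothing is read from these shares. The plot of fold changes sets the narrow intervals of Egfr and Erbb2 beside the wide ones of Egf and Erbb3.

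**Figure D2:**
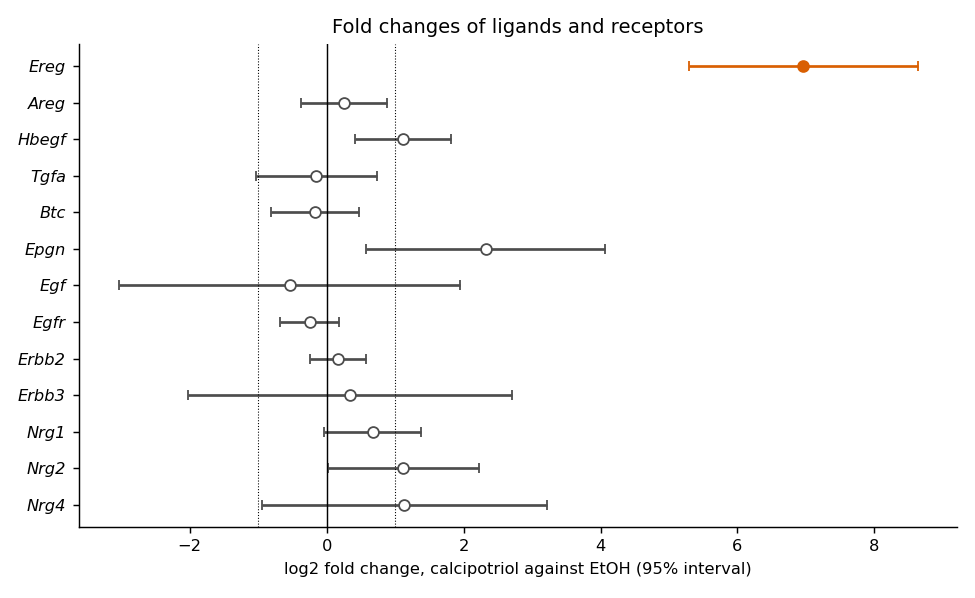
The x axis gives the log2 fold change of calcipotriol against EtOH with its 95% interval for the 10 members and the 3 tested neuregulins, and the dotted lines mark a log2 fold change of 1 in either direction. The filled orange point is Ereg at 6.96, and the open points did not pass both thresholds.

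Levels can be compared between genes only per length, so CPM was divided by the kilobases of merged exon of each gene. In the EtOH-treated tumors the order was Areg (82.9 ± 38.8 CPM per kb, SD, n = 4), Hbegf (10.1 ± 3.75), Erbb2 (5.71 ± 1.05), Btc (5.49 ± 0.94) and Egfr (4.22 ± 0.723). Below them came Tgfa (0.518 ± 0.163), Erbb3 (0.171 ± 0.197), Epgn (0.148 ± 0.128), Egf (0.0631 ± 0.0439) and Ereg (0.0406 ± 0.0665). Only 2 steps in this order separated genes whose ranges did not overlap, that from Areg to Hbegf and that from Egfr to Tgfa. In the calcipotriol-treated tumors Areg (98.8 ± 7.63 CPM per kb, SD, n = 4) and Hbegf (22.0 ± 8.52) again led, each clear of the gene below it. Ereg moved from the last place to the fourth, at 5.28 ± 1.28 CPM per kb, and its range overlapped those of Erbb2 (6.41 ± 1.16) and Btc (4.87 ± 2.41) on either side. Egfr (3.55 ± 0.84) was clear of Epgn (0.761 ± 0.205), whereas the ranges of Epgn, Tgfa (0.468 ± 0.148), Erbb3 (0.218 ± 0.0923) and Egf (0.0437 ± 0.0526) overlapped from each to the next.

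The makeup of the ligand mRNA was described by the share of each ligand in the sum of the 7, on the per-kilobase scale. Areg made up 82.3 ± 3.92% (SD, n = 4) of the sum with EtOH and 75.2 ± 5.04% (SD, n = 4) with calcipotriol, and its ranges of 77.5 to 86.6% and 68.7 to 80.3% overlapped. Hbegf made up 8.97 to 11.2% with EtOH and 12.3 to 20.6% with calcipotriol. Ereg was at most 0.097% of the sum with EtOH and 3.21 to 4.84% with calcipotriol, so that even after its rise it stayed a minor part of the ligand mRNA beside Areg. Btc made up 3.73 to 10.6% with EtOH and 2.62 to 5.51% with calcipotriol. Epgn stayed below 0.85% in 7 of the tumors and reached that value in calcipotriol replicate 7. The sum itself was 64.4, 61.2, 128.4 and 143.2 CPM per kb in the EtOH-treated tumors and 153.0, 139.4, 123.2 and 113.1 CPM per kb in the calcipotriol-treated tumors, which overlapped.

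**Figure D3:**
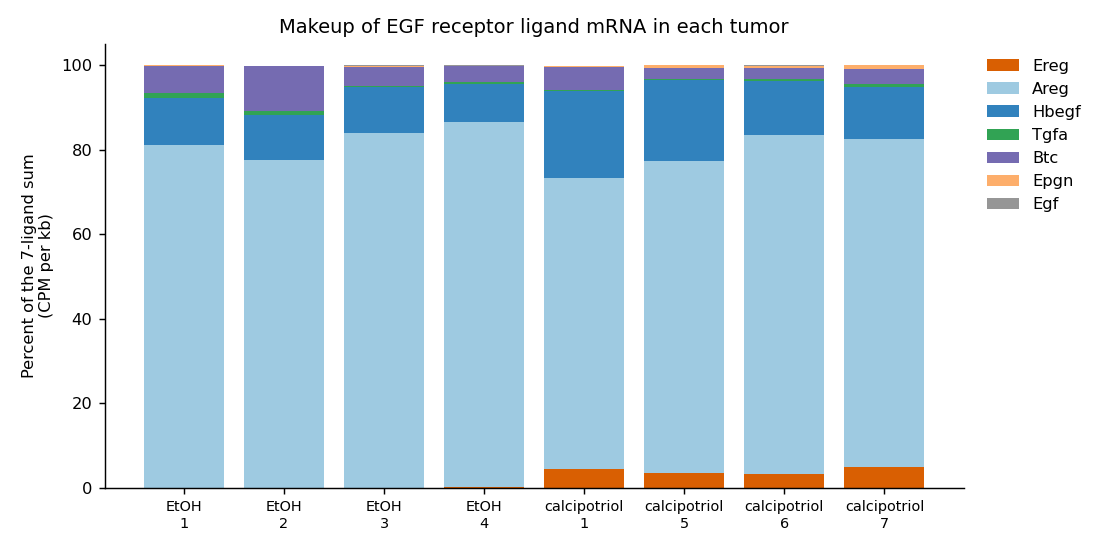
Each bar is 1 tumor, and its segments give the percent of the 7-ligand sum (CPM per kb of merged exon) held by each ligand, from 0 to 100%. Areg fills most of every bar, and the orange Ereg segment at the base is 3.21 to 4.84% in the calcipotriol-treated tumors.

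The remaining ERBB genes were read beside the family. Erbb4, the receptor that Ereg, Hbegf and Btc share with the neuregulins, had 0 counts in all 8 tumors, as did the neuregulin gene Nrg3, which allows up to 3 counts in a library. Of the neuregulins, the ligands of ERBB3 and ERBB4, Nrg1 had 6.23, 3.8, 3.89 and 3.04 CPM with EtOH and 9.18, 5.62, 4.95 and 7.29 CPM with calcipotriol. This was a log2 fold change of 0.67 (SE 0.32, with an adjusted p = 0.298 in edgeR's quasi-likelihood test). Nrg2 had a log2 fold change of 1.12 (adjusted p = 0.262) and Nrg4 of 1.13 (adjusted p = 0.568) in edgeR's test, with overlapping groups for each.

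Erbb4 and the neuregulins formed a list of 5 genes, and the genes that release the ligands, restrain the receptors and carry the signal formed the other 5 lists. The 6 lists held 90 genes, of which 86 were tested. In edgeR's quasi-likelihood test 1 of the 86 (1.16%) was called higher and 0 lower. The 9 shedding genes, among them Adam17, the main sheddase of several of these ligands, and Rhbdf2, a partner of its maturation, had log2 fold changes from -0.44 to 0.24 with a median of -0.24, against a median of 0.02 over all genes, and none passed. Adam17 itself had 80.2 to 103.6 CPM with EtOH and 63.0 to 98.2 CPM with calcipotriol. Of 15 tested genes for receptor inhibitors and turnover, none passed both thresholds. Lrig3 had 3.85 to 6.7 CPM with EtOH and 7.55 to 14.7 CPM with calcipotriol (log2 fold change 1.08, adjusted p = 0.0859 in edgeR's test). It was called with DESeq2's test and without calcipotriol replicate 1. Socs5, which promotes EGFR breakdown, was past the adjusted p threshold only (log2 fold change 0.59, SE 0.12, adjusted p = 0.028 in edgeR's test), with 108.9 to 138.1 CPM with EtOH and 177.4 to 189.4 CPM with calcipotriol. Its adjusted p was past the threshold no longer in 7 of 15 alternative fits (5.61e-05 to 0.0917 over all 15), among them those without EtOH replicate 1, 2 or 4 or calcipotriol replicate 5, 6 or 7. Errfi1, a feedback inhibitor of the receptor kinase, had 537.5 to 743.9 CPM with EtOH and 672.7 to 879.2 CPM with calcipotriol.

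Of the 22 tested genes for adaptors and the Ras-MAPK relay and of the 15 for the PI3K-AKT relay, none passed, and their medians of 0.07 and -0.03 lay near that of all genes. Single genes ran from -0.8 (Rps6ka1) to 0.9 (Ksr1) in the first list and from -1.13 (Pik3cd) to 0.27 in the second. Pik3cd was called with no filter, with DESeq2's test and without calcipotriol replicate 1. Rps6ka1 was called without calcipotriol replicate 1, and Ksr1 without EtOH replicates 3 and 4. Of 22 genes known to be induced by ERK or to act in its feedback, 1 passed. That gene was Fos, an immediate early transcription factor, with 345.7, 321.4, 214.4 and 196.5 CPM in EtOH replicates 1 to 4 and 370.0, 641.9, 699.8 and 673.8 CPM in calcipotriol replicates 1, 5, 6 and 7. This was a log2 fold change of 1.15 (SE 0.25, with an adjusted p = 0.0379 in edgeR's quasi-likelihood test), and the groups did not overlap. The Fos call was lost in 8 of 15 alternative fits, with adjusted p values from 0.000143 to 0.114 over all 15, and leaving out any single EtOH tumor, or calcipotriol replicate 5, 6 or 7, ended it. The other 21 genes of the list did not pass, including Egr1 (644.9 to 759.5 CPM with EtOH and 670.6 to 870.2 CPM with calcipotriol), the phosphatase gene Dusp6 (405.7 to 499.1 and 405.9 to 520.6 CPM) and the cyclin gene Ccnd1 (371.0 to 886.2 and 470.2 to 678.2 CPM). Log2 fold changes of these 21 ran from -0.96 (Spry4) to 0.78 (Ier3), and Spry4 was called without calcipotriol replicate 1.

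**Figure D4:**
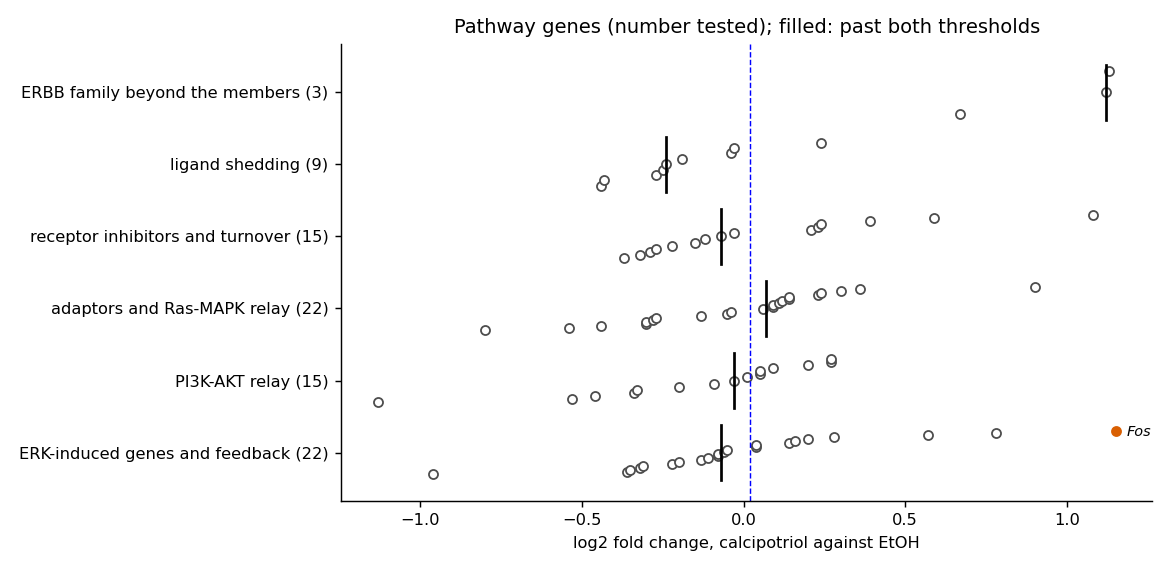
Each point is the log2 fold change of 1 tested gene of the 6 pathway lists, the black bar is the median of its list and the dashed line is the median of all tested genes at 0.02. Fos is the only filled point, and most of the others lie within 0.5 of 0.

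The neighbors of Ereg were read next, as 24 protein-coding genes whose starts lie within 1 Mb of its start. Apart from the 4 ligands, 15 of the 20 were tested, with a median log2 fold change of 0.09. In edgeR's quasi-likelihood test 1 was called higher and 0 lower. The called gene was Alb, which encodes serum albumin and starts 613.7 kb from Ereg, with 2.73 to 6.62 CPM with EtOH and 9.34 to 18.4 CPM with calcipotriol (log2 fold change of 1.63 with SE 0.35, adjusted p = 0.039). The Alb call was lost in 7 of 15 alternative fits (adjusted p from 0.000524 to 0.113 over all 15), and leaving out any of EtOH replicates 1, 2 or 3 or calcipotriol replicates 5, 6 or 7 ended it.

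Between Alb and Ereg lies a group of chemokine genes. Cxcl5 had 0 CPM in EtOH replicates 1 and 2, 2.79 and 2.07 CPM in EtOH replicates 3 and 4, and 3.73 to 7.97 CPM with calcipotriol, or 2.36 higher on the log2 scale (SE 1.08, adjusted p = 0.278 in edgeR's test). For Cxcl1, Cxcl2, Cxcl3, Ppbp and Pf4 the groups overlapped, with log2 fold changes from -0.98 (Ppbp) to 1.03 (Cxcl3). Mthfd2l, a gene of mitochondrial folate metabolism 143.5 kb from Ereg, had a log2 fold change of 0.09 (SE 0.20). Rassf6 (1.51), Cox18 (0.34), Ankrd17 (-0.05), Parm1 (-0.40), Rchy1 (-0.12), Odaph (-0.96) and Cdkl2 (-0.51) did not pass both thresholds (log2 fold changes in parentheses). The remaining neighbors did not have enough reads to be tested (Gm9958, Afp, Afm, 5830473C10Rik and Cxcl15). Ereg at 6.96 thus stood beside neighbors that spanned -0.98 to 2.36.

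**Figure D5:**
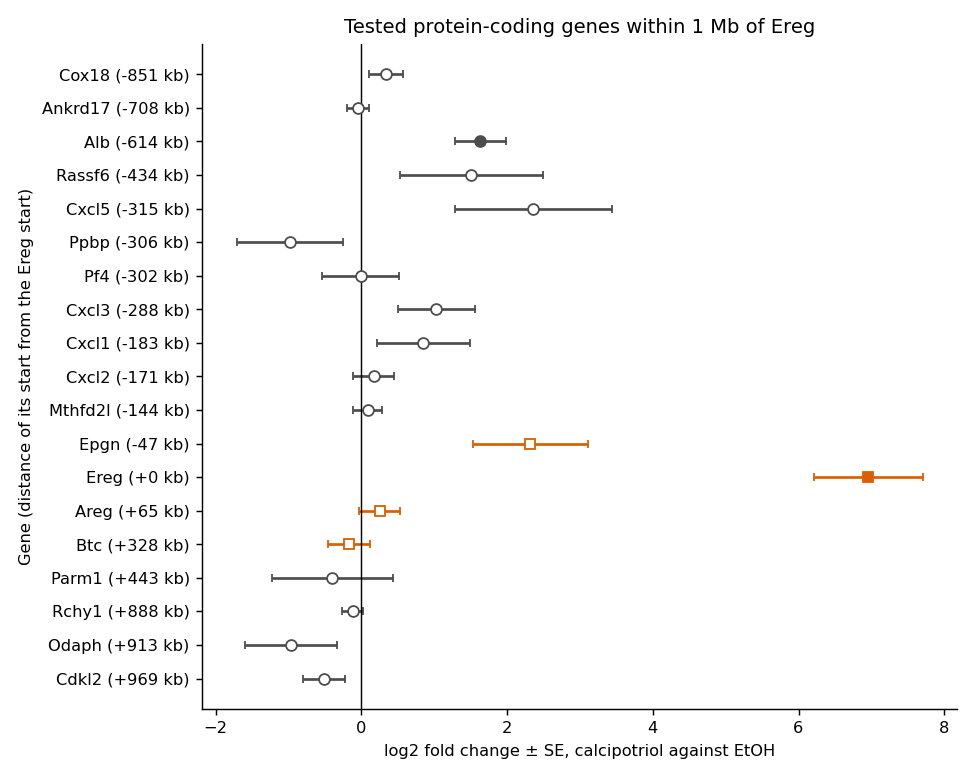
The 19 tested protein-coding genes that start within 1 Mb of Ereg are listed in genome order with the distance of their start from that of Ereg, and the x axis gives the log2 fold change with its standard error. Squares are members of the ligand family, circles are other genes, and the filled symbols, Alb at 1.63 and Ereg at 6.96, passed both thresholds.

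The genes whose profile was most like that of Ereg were found by the root mean square difference of log2 CPM, centered on the EtOH mean, over the 8 tumors. The nearest 5 were Col4a6 (difference 1.11), a chain of basement membrane collagen, the forkhead genes Foxd1 (1.23) and Foxr2 (1.60), Crabp2 (1.76), which encodes a retinoic acid carrier, and Ccdc24 (1.78). Col4a6 had at most 0.309 CPM in any EtOH-treated tumor and 6.48, 29.6, 5.86 and 8.18 CPM in calcipotriol replicates 1, 5, 6 and 7. Foxd1 had 0 counts in all EtOH-treated tumors and 12.4, 14.9, 3.03 and 2.76 CPM with calcipotriol, and Foxr2 had 0 counts with EtOH and 2.78, 23.3, 2.40 and 2.37 CPM with calcipotriol. Crabp2 had 0.974 to 8.12 CPM with EtOH and 48.4 to 168.2 CPM with calcipotriol. For each of the 5, the order of the calcipotriol-treated tumors differed from that of Ereg, which was highest in replicate 1 (28.8 CPM) and lowest in replicate 6 (16.3 CPM). These genes were picked for their likeness, so their rise is no separate result.

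In bulk tumor RNA, fewer cells of a type and less RNA per cell cannot be told apart, so the levels of cell type markers were set beside the family. Among 8 tested basal epithelial markers, 2 rose in edgeR's quasi-likelihood test: Krt14 (0.584, 0, 1.5 and 0.662 CPM with EtOH against 1.59, 10.2, 46.3 and 43.4 CPM with calcipotriol, adjusted p = 0.0336) and Trp63 (0.265 to 1.17 CPM against 3.5 to 7.54 CPM, adjusted p = 0.0333). These calls were lost in 10 of 14 alternative fits for Krt14 (adjusted p from 0.00196 to 0.446) and in 7 of 14 for Trp63 (8.72e-05 to 0.107), and without any of EtOH replicates 1, 2 and 3 or calcipotriol replicates 5, 6 and 7 neither was called. Among the calcipotriol-treated tumors Krt14 was lowest in replicate 1, the tumor with the most Ereg and Hbegf, as were Trp63, Krt5 and Krt17. Itga6 and Itgb4 were highest in that tumor, and Lamb3 and Col17a1 lay between. The summed basal list was 1068.3 to 1261.2 CPM with EtOH and 471.8 to 903.8 CPM with calcipotriol, a sum led by Itga6 and Itgb4. These 2 had log2 fold changes of -0.83 and -0.62, and Itga6 was lower in every calcipotriol-treated tumor than in any EtOH-treated tumor. Of the 8 basal markers, 5 had positive and 3 negative log2 fold changes, with a median of 0.71. The 10-gene epithelial list, of which 8 were tested and 0 called, summed to 1013.6 to 1322.0 CPM with EtOH and 595.0 to 893.8 CPM with calcipotriol. That sum was led by Krt8 and Krt18, with log2 fold changes of -0.69 and -0.93. The other 6 tested genes had positive log2 fold changes, and the median of the 8 was 0.61. Of 8 markers of cornified skin, which lies over the treated site, 3 had enough reads to be tested and none passed, Flg and Dsg1a had 0 counts in all tumors, Krt1 and Ivl reached at most 0.278 CPM, and the list summed to 10.6 to 14.9 CPM with EtOH and 5.24 to 22.1 CPM with calcipotriol. Sbsn of the same list had 0.195 to 1.31 CPM with EtOH and 1.27 to 6.92 CPM with calcipotriol (log2 fold change 2.51, adjusted p = 0.0817 in edgeR's test), and was called higher with DESeq2's test and without calcipotriol replicate 1. Of the other tested genes of that list, Lor had 7.41 to 11.8 CPM with EtOH and 2.06 to 9.23 CPM with calcipotriol (log2 fold change -1.01). Krt10 had a log2 fold change of 0.19.

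In the same test 6 of 10 endothelial markers fell and 0 rose (summed level 187.7 to 417.9 CPM with EtOH and 76.4 to 135.2 CPM with calcipotriol), 2 of 10 macrophage markers fell (Adgre1 and Csf1r, summed list 2287.0 to 2722.8 CPM and 1037.4 to 1999.4 CPM), and Fabp4 fell among 5 tested adipocyte markers (summed list 28.6 to 60.0 CPM and 14.6 to 35.3 CPM). With single tumors left out, the endothelial count was 2 to 7 (2 without calcipotriol replicate 5 or 7, and 3 without EtOH replicate 2 or calcipotriol replicate 6), the macrophage count was 6 without calcipotriol replicate 1 and 0 without any other tumor, and Fabp4 was called each time. No tested marker of fibroblasts (10), neutrophils (8), T cells (6) or mast cells and basophils (9) passed. Their summed levels with EtOH and calcipotriol were 5747.2 to 6966.1 and 4690.4 to 7769.4 CPM for fibroblasts, 35.1 to 112.2 and 45.4 to 162.3 CPM for neutrophils, 1.72 to 5.3 and 3.86 to 16.1 CPM for T cells, and 41.9 to 71.9 and 22.8 to 67.3 CPM for mast cells and basophils. Of the 6 tested T cell markers, 5 had positive log2 fold changes and 1 negative (median 1.51). Their reads were few, so the lack of a call does not show an unchanged level. The part of these shifts in the values of Ereg, Hbegf and Epgn was not tested.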

How the data were processed

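RNA-Seq libraries of 4 EtOH-treated and 4 calcipotriol-treated PyMt tumors were prepared with the NEBNext Ultra RNA kit. The submitters' processing notes name GRCm38, STAR 2.5.3, RSEM 1.3.1 and DESeq2 1.24.0; the annotation release and strand setting are not given in the sources used here. The authors deposited 1 table of expected counts per gene, not normalized, made from their aligned reads before deposit. In it 4.196 to 6.219% of the values of a library were not whole, and these were rounded before testing. Gene names, positions and lengths came from GENCODE M21, in which 52133 of 55414 identifiers were found. Without a known strand, reads of overlapping antisense genes cannot be told apart. Every column of the table belonged to these tumors.

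The counts were filtered (filterByExpr, 14458 genes kept), scaled by TMM and tested with edgeR 4.0.16 (quasi-likelihood, group as the only term, Benjamini-Hochberg over all tested genes) in R 4.3.3. A gene was called at an adjusted p under 0.05 and a log2 fold change of at least 1 in size. CPM used TMM-scaled totals, and log2 CPM added a prior count of 2. The alternatives were DESeq2 size factors, DESeq2 1.42.0, limma-voom (limma 3.58.1), no filter, at least 10 counts in every tumor, leaving out each tumor, the longest transcript as length and, chosen after seeing the data, leaving out either pair of EtOH tumors. The fits were tested on simulated data. Named genes were the 10 members, listed pathway genes past both thresholds with Erbb4 and the neuregulins, protein-coding genes within 1 Mb of Ereg and the 5 genes most like Ereg; other list and marker genes were named as examples after their values were seen. The members and lists were chosen with earlier results of these data known. A planned search of protein sequences was not run.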

Additional observations from a re-analysis of the deposited data

Results flagged for a closer look

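In the EtOH-treated tumors Tgfa was set apart by replicate 3: its 1.82 CPM lay below the 3.7 to 4.23 CPM of the other 3 EtOH tumors, and the gap was 0.839 of the range of the group on the log2 scale, above Dixon's 95% critical value for 4 samples. There were 20 such groups examined (10 genes in 2 groups), and chance flags about 1 in 20.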

How the results depend on the processing

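Of 292 genes called, the count was 458 with no filter on low counts, 644 with DESeq2's test, 113 to 642 over the tumors left out singly (642 without calcipotriol replicate 1, 137, 117 and 175 without EtOH replicates 1, 2 and 3, and 123, 113 and 116 without calcipotriol replicates 5, 6 and 7), 177 without EtOH replicates 1 and 2 and 604 without EtOH replicates 3 and 4. Members called were 2 (Ereg and Hbegf) with no filter and with DESeq2's test, 3 (with Epgn) without EtOH replicates 3 and 4, and 0 with at least 10 counts in every tumor, where Ereg, Epgn, Egf and Erbb3 were not tested by construction. Ereg was called in the other 14 alternatives, with log2 fold changes of 6.27 to 9.24. Pathway genes called were 2 with no filter, 3 with DESeq2's test and 0 to 5 over the tumors left out singly (5 without calcipotriol replicate 1, 0 without any of the other 7). With the longest transcript as the length, Areg made up 76.2% rather than 82.3% of the ligand sum with EtOH, Hbegf was at 16.9 and 36.7 rather than 10.1 and 22.0 CPM per kb (EtOH and calcipotriol), Egf at 0.15 and 0.103 rather than 0.0631 and 0.0437, and Btc changed places with Erbb2 (EtOH) and with Ereg (calcipotriol) in the order of levels. Where no other reason is given, the cause was not tested. No paired analysis was possible because the labels give no pairing between EtOH-treated and calcipotriol-treated tumors. Egf, Epgn and Erbb3 had only 0 to 62 counts in a tumor, so counting error is large for them, beside a spread between tumors.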
